A study of Homo sapiens with 12 samples.

Results

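Cells meet a shortage of amino acids or a load of unfolded protein in the endoplasmic reticulum (ER) with linked transcriptional programmes. In the integrated stress response, kinases that sense either stress phosphorylate eIF2α, general translation falls, and the transcription factor ATF4 is translated and drives genes of amino acid synthesis and import. In the unfolded protein response, the ER sensors PERK, IRE1 and ATF6 act through ATF4, spliced XBP1 and cleaved ATF6 to raise chaperones and the machinery that removes misfolded proteins.

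The expression of 43 genes of these programmes was examined in PC9 cells, an EGFR-mutant non-small cell lung cancer line. The 43 genes came from a list written by pathway role, with earlier results of these data known, and all 43 were found among 19775 genes tested, each through its brightest probe set on average across the 12 arrays. They fell into an ATF4 branch of 26 genes (transcription factors, stress effectors, amino acid synthesis and amino acid transport), the 3 ER sensors together with XBP1, 10 ER chaperones and folding enzymes, and 3 genes of ER-associated degradation (ERAD). Total RNA was measured in 4 groups of 3 arrays: a stable pre-miR-371 line in 2 μM erlotinib, a stable GFP vector line in 2 μM erlotinib, the pre-miR-371 line in DMSO and the GFP vector line in DMSO, each for 24 h. Erlotinib inhibits the EGFR kinase, and DMSO is its solvent. The pre-miR-371 line carried a lentiviral construct for the microRNA precursor, and the study's construct list names a scramble hairpin in a copGFP vector as the control of that set. Only 1 stable line per construct was measured, so an effect of the microRNA cannot be told apart from a difference between these particular lines. The study's methods describe its replicates in general as biological and from independent experiments, without naming the arrays, and the labels name no culture for any array, so p-values measure the spread between these arrays. Values are log2 expression of the authors, on which a difference of 1 is a doubling, and the number of arrays limits their precision.

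The arrays were alike in scale, with medians of 4.31 to 4.41 and mean correlations within groups of 0.996 to 0.997. The labelled cell type carried its markers: EPCAM, CDH1, KRT7, KRT8, KRT18, KRT19 and EGFR had group means between 10.42 and 13.66. Of these, EGFR was called lower with erlotinib in both lines (by 0.95 in pre-miR-371 and 1.05 in GFP vector cells), and KRT8, at 0.57 in pre-miR-371 and 0.50 in GFP vector cells, KRT19, at 0.53 in pre-miR-371 and 0.49 in GFP vector cells, and the other 4 markers stayed inside the fold limit. Of 6 fibroblast markers, COL1A1 had group means of 6.83 to 7.07 and the other 5 were below 5, and the leukocyte marker PTPRC was at 2.78 to 2.87. LYZ was the only one of these 11 non-epithelial markers called, higher with erlotinib by 1.26 in pre-miR-371 and 1.37 in GFP vector cells, and its part in the results was not tested. The EGFR pathway outputs DUSP6, ETV5, FOSL1 and SPRY4 fell in both lines, DUSP6 by 6.00 in pre-miR-371 and 5.91 in GFP vector cells. In a bulk sample fewer cells of a kind and less RNA per cell cannot be told apart.

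Erlotinib moved the ER arm of the response largely upward and the ATF4 branch in both directions. HERPUD1, ASNS, VLDLR and XBP1 rose most in both lines, while STC2, ERN1, SLC7A1 and CEBPG fell in both. A gene was called at a Benjamini-Hochberg adjusted p under 0.05 (limma, over all genes) and a fold over 1.5. In pre-miR-371 cells 13 of the 43 genes were called higher and 5 lower, where 12.6% and 9.33% of all genes were. In GFP vector cells 16 were called higher and 6 lower, where 14.1% and 11.7% of all genes were. Of the 43 genes, 12 were called higher in both lines and 4 lower in both, 19 were called in neither, and none was called in opposite directions (0 genes). PHGDH was called higher and TRIB3 lower only by the test in pre-miR-371 cells; DDIT3, CHAC1, HSPA5 and PDIA4 were called higher and ATF5 and PSPH lower only in GFP vector cells. For 0 of these 8 did the difference between the 2 responses itself pass the adjusted p.

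With no fold limit, 27 genes were higher and 9 lower in pre-miR-371 cells, against 24.8% and 22.2% of all genes. The same count in GFP vector cells was 26 higher and 12 lower, against 26.5% and 23.4% of all genes. Most members thus passed the adjusted p, and the fold limit separated the large changes from the small.

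The median response was taken for each branch. For the 10 chaperones it was 0.50 in pre-miR-371 and 0.55 in GFP vector cells, and for the 26 genes of the ATF4 branch it was 0.26 in pre-miR-371 and 0.16 in GFP vector cells. All genes had medians of -0.03 in pre-miR-371 and 0.00 in GFP vector cells. No chaperone was called lower in either line (0 of 10), while 3 were called higher in pre-miR-371 and 5 in GFP vector cells. These limits called 12.6% of all genes higher and 9.33% lower in pre-miR-371 cells, and 14.1% and 11.7% in GFP vector cells. The 0 of 10 called lower thus lay near the share of all genes. With no fold limit 8 of the 10 were higher and 1 was lower in each line, by limma at the adjusted p, by limma at an unadjusted p under 0.05 and by the methods' t-test, the Student's t-test the study names for its other assays, at that p. At the unadjusted p, limma had 26.5% of all genes higher and 25.4% lower in pre-miR-371 cells, and 28.4% higher and 25.3% lower in GFP vector cells. By the t-test these shares were 25.7% higher and 23.8% lower in pre-miR-371 cells, and 25.7% higher and 23.0% lower in GFP vector cells. In the ATF4 branch 5 genes were called higher and 4 lower in pre-miR-371 cells, and 6 higher and 5 lower in GFP vector cells. These counts and medians are descriptions, and no test set one branch against the other.

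**Figure D1:**
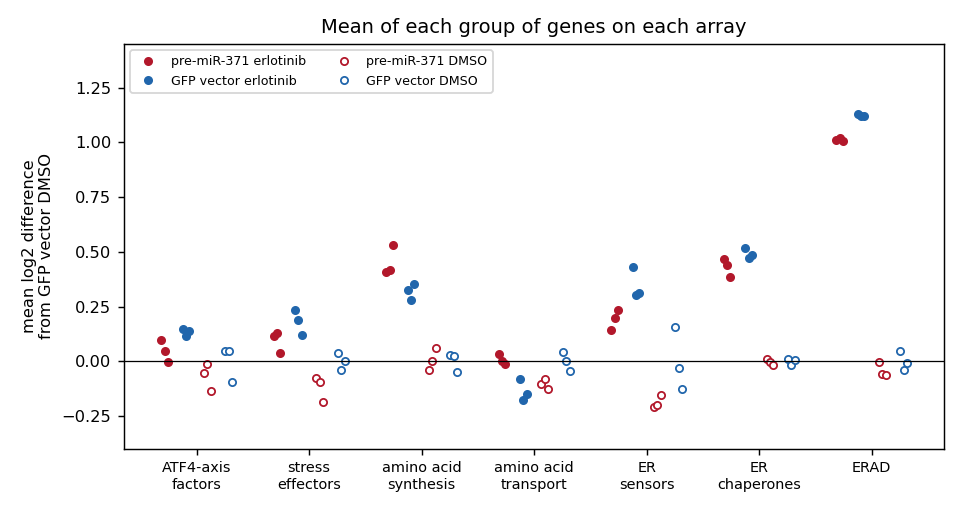
Mean log2 difference from the GFP vector DMSO mean over the genes of each role, 1 point per array; filled points are erlotinib, open points DMSO, red the pre-miR-371 line and blue the GFP vector line. XBP1 is not in any column. The chaperone means lie between 0.39 and 0.52 on the 6 erlotinib arrays and between -0.02 and 0.01 on the 6 DMSO arrays. In the GFP vector line the transport means lie between -0.18 and -0.08 with erlotinib and between -0.04 and 0.04 with DMSO. In the pre-miR-371 line they lie between -0.01 and 0.03 with erlotinib and between -0.13 and -0.08 with DMSO.

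**Figure D2:**
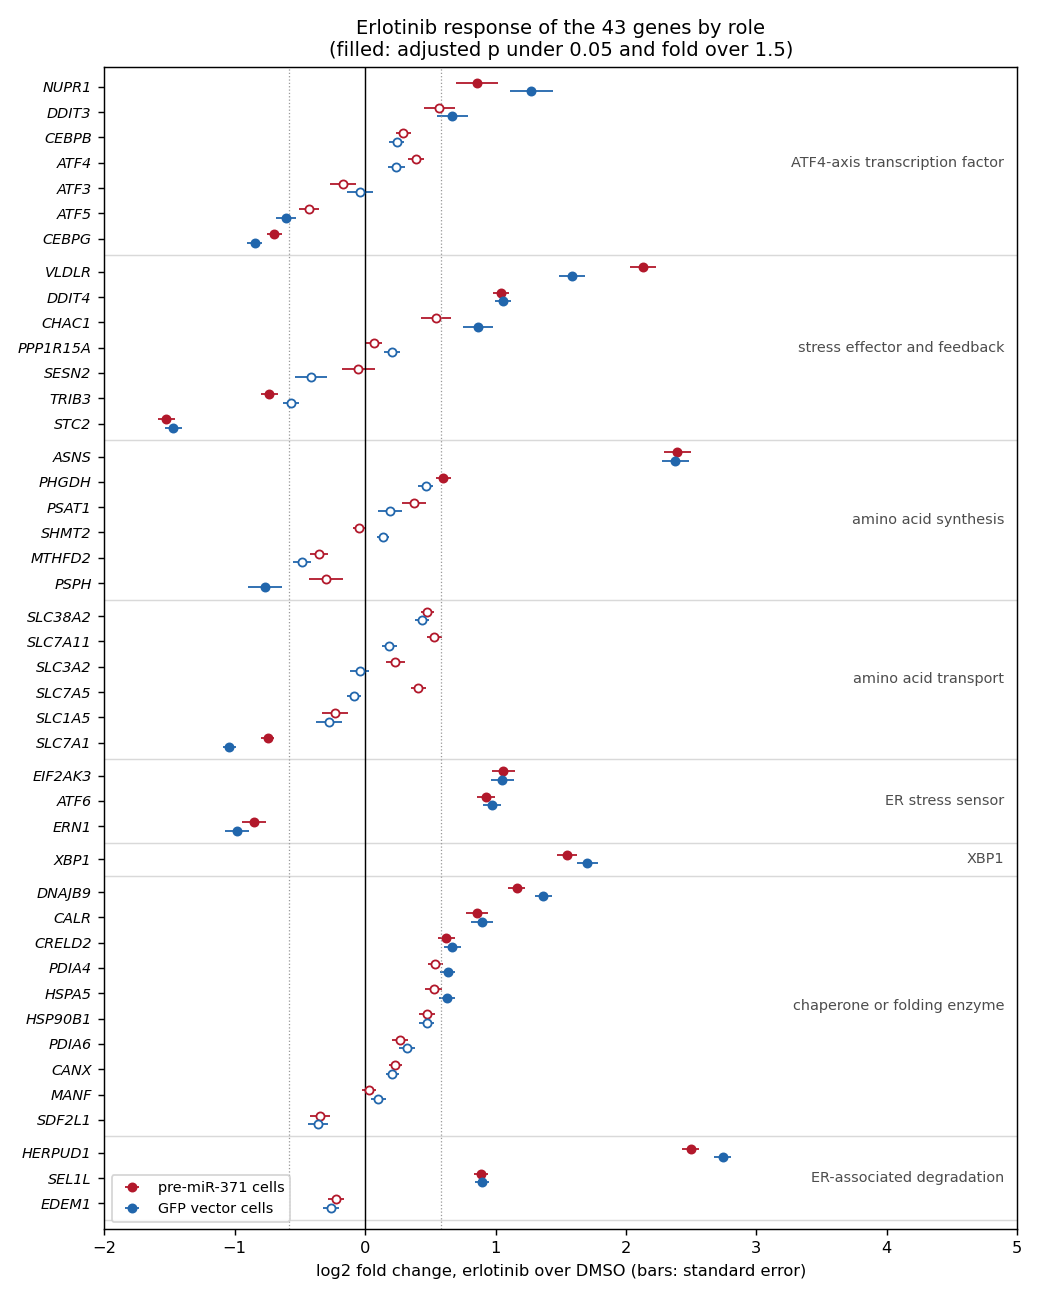
Log2 fold change of erlotinib over DMSO for each of the 43 genes, grouped by role; points are limma estimates, bars standard errors, red pre-miR-371 cells and blue GFP vector cells. Filled points passed the adjusted p and the fold of 1.5, whose limits are the dotted lines. The chaperones lie to the right of 0 except SDF2L1, and the ATF4 branch lies on both sides.

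ATF4 itself, the factor translated when eIF2α is phosphorylated, changed little in mRNA. In pre-miR-371 cells it was at 11.81, 11.86 and 11.71 with erlotinib, against 11.39, 11.46 and 11.36 with DMSO. The GFP vector line gave 11.81, 11.78 and 11.82 with erlotinib, against 11.67, 11.55 and 11.48 with DMSO. The erlotinib arrays lay above the DMSO arrays without overlap in both lines. The differences were 0.39 ± 0.064 in pre-miR-371 cells (± is the SE throughout, adjusted p = 0.000227) and 0.24 ± 0.064 in GFP vector cells (adjusted p = 0.00699), inside the fold limit. The mRNA level says nothing of how much ATF4 protein was made.

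DDIT3 encodes CHOP, a pro-apoptotic factor downstream of ATF4. Its values were 6.94, 6.66 and 6.65 with erlotinib, against 6.07, 6.47 and 6.00 with DMSO in pre-miR-371 cells. They were 6.78, 6.90 and 6.85 with erlotinib, against 6.24, 6.05 and 6.23 with DMSO in GFP vector cells. All erlotinib arrays were above all DMSO arrays of their line. The rise in GFP vector cells was 0.67 ± 0.12 (adjusted p = 0.000417), and the difference in pre-miR-371 cells was 0.57 ± 0.12 (adjusted p = 0.00156), short of the fold limit of 0.585. Without pre-miR-371 DMSO replicate 2, the highest of its group, it was 0.71 and called, as it was at 0.62 without either pre-miR-371 erlotinib replicate 2 or replicate 3.

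ATF3, a stress-induced repressor and activator, gave a value that depended on the probe set. The probe set used was dim, at 5.08, 5.24 and 5.17 with erlotinib, against 5.36, 5.34 and 5.29 with DMSO in pre-miR-371 cells. In GFP vector cells it was at 4.95, 5.04 and 5.13 with erlotinib, against 4.82, 5.21 and 5.21 with DMSO, where the groups overlapped. Its differences were -0.17 in pre-miR-371 and -0.04 in GFP vector cells and were not called. Another ATF3 probe set with a lower mean, 4.63, was higher with erlotinib by 0.85 in pre-miR-371 and 1.06 in GFP vector cells and was called in both, so ATF3 has no settled direction here.

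The remaining factors of this axis also split. NUPR1, a small stress-induced chromatin protein, rose by 0.85 in pre-miR-371 and 1.27 in GFP vector cells from dim signals, with DMSO arrays between 4.85 and 5.65. CEBPG, a dimer partner of ATF4, fell by 0.70 in pre-miR-371 and 0.85 in GFP vector cells, and ATF5, an ATF4 relative, by 0.61 in GFP vector cells (-0.43 in pre-miR-371 cells, not called). Without GFP vector DMSO replicate 1 the ATF5 difference was -0.55 and no longer past the fold. As a mean over all their probe sets, CEBPG (-0.43 in pre-miR-371 and -0.56 in GFP vector cells) and ATF5 (-0.19 in GFP vector cells) were not called. CEBPB, another partner, was 0.29 higher in pre-miR-371 and 0.24 higher in GFP vector cells, inside the fold limit.

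TRIB3, a pseudokinase induced by ATF4 that feeds back on it, was lower with erlotinib. Its values were 7.56, 7.60 and 7.53 with erlotinib, against 8.33, 8.37 and 8.20 with DMSO in pre-miR-371 cells. They were 7.75, 7.67 and 7.84 with erlotinib, against 8.34, 8.32 and 8.30 with DMSO in GFP vector cells. No erlotinib array reached a DMSO array. The fall was called in pre-miR-371 cells (-0.73 ± 0.063, adjusted p = 7.82e-07), and -0.57 ± 0.063 in GFP vector cells lay just inside the fold limit (adjusted p = 6.37e-06). That value was -0.61 and called without GFP vector erlotinib replicate 3 or with arrays centred on their medians. As a mean over all probe sets the pre-miR-371 value was -0.51 and not called.

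CHAC1, which degrades glutathione and is a usual target of ATF4 with CHOP, was dim but higher. It was at 5.49, 5.46 and 5.60 with erlotinib, against 5.07, 4.77 and 5.06 with DMSO in pre-miR-371 cells. The GFP vector arrays were at 5.70, 5.67 and 5.33 with erlotinib, against 4.66, 4.58 and 4.87 with DMSO. The groups did not overlap in either line. The rise was called in GFP vector cells (0.86 ± 0.114, adjusted p = 3.35e-05), and 0.55 ± 0.114 (adjusted p = 0.00154) in pre-miR-371 cells was just inside the fold limit. Without pre-miR-371 DMSO replicate 1 it was 0.60, and without replicate 3 it was 0.59, and called in both cases.

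STC2, a secreted glycoprotein counted among ATF4 targets, fell most of all 43 genes. In pre-miR-371 cells it was at 8.10, 8.14 and 8.04 with erlotinib, against 9.66, 9.67 and 9.54 with DMSO. Values in GFP vector cells were 8.46, 8.29 and 8.32 with erlotinib, against 9.90, 9.81 and 9.77 with DMSO. The groups lay far apart. The falls were -1.53 ± 0.066 in pre-miR-371 cells (adjusted p = 2.09e-09) and -1.47 ± 0.066 in GFP vector cells (adjusted p = 2.07e-09).

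VLDLR, a lipoprotein receptor raised by ATF4 under ER stress, moved the other way. It was at 8.02, 8.07 and 7.86 with erlotinib, against 6.05, 5.82 and 5.68 with DMSO in pre-miR-371 cells. It was at 7.91, 7.94 and 7.86 with erlotinib, against 6.49, 6.20 and 6.26 with DMSO in GFP vector cells. Every erlotinib array was more than 1 log2 unit above every DMSO array of its line. The rises were 2.13 ± 0.101 in pre-miR-371 cells (adjusted p = 4.83e-09) and 1.59 ± 0.101 in GFP vector cells (adjusted p = 4.29e-08).

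DDIT4, an inhibitor of mTORC1 signalling, rose by 1.04 in pre-miR-371 and 1.06 in GFP vector cells. SESN2, another stress-induced regulator of mTORC1, was at -0.05 in pre-miR-371 and -0.42 in GFP vector cells, and PPP1R15A, which encodes the phosphatase subunit GADD34 that reverses eIF2α phosphorylation, at 0.07 in pre-miR-371 and 0.21 in GFP vector cells. Neither was called. Of the 7 effector and feedback genes, 2 were called higher and 2 lower in pre-miR-371 cells, and 3 higher and 1 lower in GFP vector cells. The shares of all genes were 12.6% higher and 9.33% lower in pre-miR-371 cells, and 14.1% and 11.7% in GFP vector cells.

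**Figure D3:**
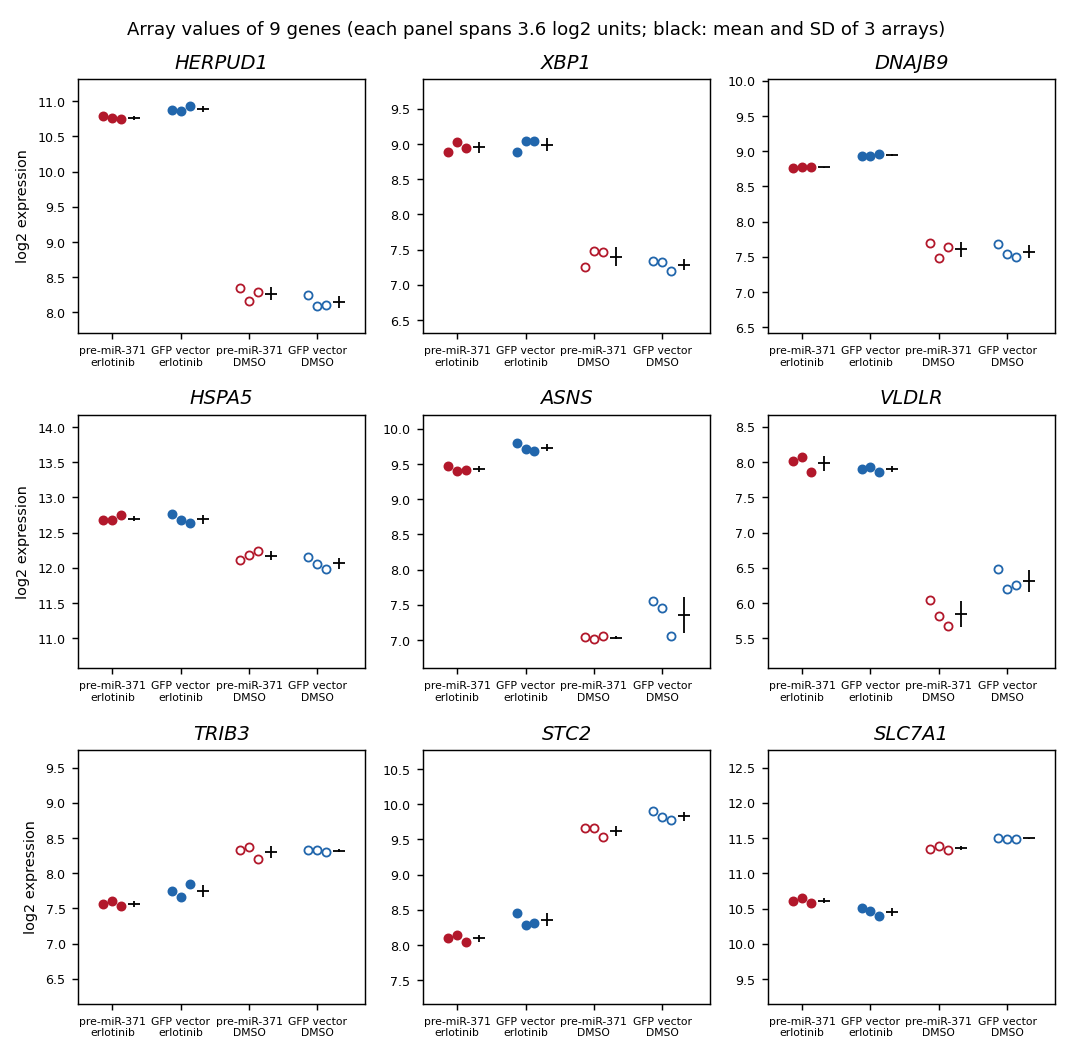
Log2 expression on each of the 12 arrays for 9 genes, each panel spanning 3.6 log2 units about its own centre; filled points are erlotinib and open points DMSO, red pre-miR-371 and blue GFP vector, with the mean and SD of 3 arrays in black. HERPUD1, XBP1, DNAJB9, HSPA5, ASNS and VLDLR are higher on all erlotinib arrays and TRIB3, STC2 and SLC7A1 lower.

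Among the 6 genes of amino acid synthesis, ASNS, which makes asparagine, changed most. Its values were 9.47, 9.40 and 9.42 with erlotinib, against 7.04, 7.01 and 7.05 with DMSO in pre-miR-371 cells. They were 9.79, 9.72 and 9.69 with erlotinib, against 7.56, 7.45 and 7.06 with DMSO in GFP vector cells. One GFP vector DMSO array was lower than the other 2, and no erlotinib array came within 2 log2 units of a DMSO array of its own line. The rises were 2.40 ± 0.102 in pre-miR-371 cells (adjusted p = 1.97e-09) and 2.38 ± 0.102 in GFP vector cells (adjusted p = 1.53e-09).

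The serine pathway did not move as 1 block. PHGDH, its first enzyme, was at 10.28, 10.23 and 10.17 with erlotinib, against 9.62, 9.64 and 9.62 with DMSO in pre-miR-371 cells. The GFP vector arrays were at 10.19, 10.29 and 10.20 with erlotinib, against 9.84, 9.77 and 9.69 with DMSO. The rise was called in pre-miR-371 cells (0.60 ± 0.059, adjusted p = 2.67e-06), where it lay close to the fold limit: without pre-miR-371 erlotinib replicate 1 it was 0.57, and with arrays centred on their medians 0.58, both short of it. In GFP vector cells the difference was 0.46 ± 0.059 (adjusted p = 2.26e-05). PSAT1, the aminotransferase of the next step, was at 11.06, 11.14 and 11.36 with erlotinib, against 10.67, 10.79 and 10.99 with DMSO in pre-miR-371 cells. The GFP vector line gave 10.98, 10.84 and 10.92 with erlotinib, against 10.73, 10.76 and 10.68 with DMSO. The groups did not overlap in either line, though they lay close. Its differences, 0.37 ± 0.092 in pre-miR-371 cells (adjusted p = 0.00461) and 0.19 ± 0.092 in GFP vector cells (adjusted p = 0.103), were not called.

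PSPH, the phosphatase that completes serine synthesis, was called lower only in GFP vector cells with the probe set used. It was at 9.44, 9.45 and 9.90 with erlotinib, against 9.70, 9.95 and 10.02 with DMSO in pre-miR-371 cells, which overlapped. It was at 8.78, 8.71 and 9.06 with erlotinib, against 9.62, 9.56 and 9.67 with DMSO in GFP vector cells. The fall there was -0.77 ± 0.131 (adjusted p = 0.000294), and the pre-miR-371 difference was -0.30 ± 0.131 (adjusted p = 0.0854). Dimmer PSPH probe sets, with means of 8.3 and 5.3, were lower in both lines. They were at -0.46 and -0.59 in pre-miR-371 cells, the latter called, and at -0.71 and -0.79 in GFP vector cells, both called. Whether these probes also detect the pseudogene copy of PSPH was not tested. The mitochondrial folate genes MTHFD2, at -0.35 in pre-miR-371 and -0.48 in GFP vector cells, and SHMT2, at -0.05 in pre-miR-371 and 0.14 in GFP vector cells, were not called.

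No transport gene was called higher in either line by limma (0 of 6). The share of all genes was 12.6% in pre-miR-371 and 14.1% in GFP vector cells, so the 0 of 6 lay near that share. The 6 transport genes were also counted without the fold limit. At an unadjusted p under 0.05, 4 were higher in pre-miR-371 and 2 in GFP vector cells, by limma and by the methods' t-test alike. Limma had 26.5% of all genes higher in pre-miR-371 and 28.4% in GFP vector cells, and the t-test 25.7% in each line. The 2 of 6 in GFP vector cells thus lay near those shares. SLC7A1, the cationic amino acid transporter CAT1, fell. It was at 10.61, 10.65 and 10.58 with erlotinib, against 11.35, 11.39 and 11.33 with DMSO in pre-miR-371 cells. It was at 10.50, 10.47 and 10.39 with erlotinib, against 11.51, 11.49 and 11.49 with DMSO in GFP vector cells. The 2 groups of each line lay well apart. The falls were -0.75 ± 0.051 in pre-miR-371 cells (adjusted p = 1.13e-07) and -1.04 ± 0.051 in GFP vector cells (adjusted p = 4.54e-09). As a mean over its 5 probe sets the pre-miR-371 value was -0.44 and not called.

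SLC7A5 (LAT1) imports large neutral amino acids as a dimer with the SLC3A2 heavy chain. SLC7A5 was at 10.11, 10.09 and 10.09 with erlotinib, against 9.74, 9.64 and 9.70 with DMSO in pre-miR-371 cells. Values in GFP vector cells were 9.82, 9.68 and 9.79 with erlotinib, against 9.83, 9.89 and 9.83 with DMSO. The erlotinib arrays were the higher group in pre-miR-371 cells. In GFP vector cells the groups all but touched, at 9.823 for the highest erlotinib array and 9.826 for the lowest DMSO array. The differences were 0.41 ± 0.056 in pre-miR-371 cells (adjusted p = 5.10e-05) and -0.08 ± 0.056 in GFP vector cells (adjusted p = 0.249), both inside the fold limit. SLC3A2 was at 9.02, 8.96 and 9.13 with erlotinib, against 8.77, 8.85 and 8.80 with DMSO in pre-miR-371 cells. SLC3A2 was at 8.93, 8.89 and 8.93 with erlotinib, against 9.11, 8.89 and 8.88 with DMSO in GFP vector cells, where the groups overlapped. Its differences were 0.23 ± 0.071 in pre-miR-371 cells (adjusted p = 0.0171) and -0.04 ± 0.071 in GFP vector cells (adjusted p = 0.668).

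SLC7A11, the cystine importer xCT, was at 9.90, 9.86 and 9.82 with erlotinib, against 9.37, 9.32 and 9.29 with DMSO in pre-miR-371 cells. The GFP vector line gave 9.66, 9.60 and 9.64 with erlotinib, against 9.55, 9.39 and 9.39 with DMSO. Both pairs of groups were apart. The differences were 0.53 ± 0.059 in pre-miR-371 cells (adjusted p = 8.75e-06) and 0.19 ± 0.059 in GFP vector cells (adjusted p = 0.0198), inside the fold limit, and a dimmer SLC7A11 probe set was lower by 0.61 in GFP vector cells and called. SLC38A2, a small neutral amino acid transporter, was 0.48 higher in pre-miR-371 and 0.43 higher in GFP vector cells, and the glutamine carrier SLC1A5 was at -0.23 in pre-miR-371 and -0.28 in GFP vector cells, and neither was called.

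The ER sensors and XBP1 were called in both lines, 3 higher and 1 lower of 4. Among all genes 12.6% were called higher and 9.33% lower in pre-miR-371 cells, and 14.1% and 11.7% in GFP vector cells. EIF2AK3, which encodes PERK, rose by 1.06 in pre-miR-371 and 1.05 in GFP vector cells, and ATF6 by 0.93 in pre-miR-371 and 0.97 in GFP vector cells. As a mean over its probe sets EIF2AK3 was at 0.54 in pre-miR-371 and 0.57 in GFP vector cells and not called. ERN1, which encodes IRE1α, the sensor that splices XBP1 mRNA, fell. Its values were 6.32, 6.33 and 6.38 with erlotinib, against 7.17, 7.21 and 7.20 with DMSO in pre-miR-371 cells. They were 6.58, 6.45 and 6.54 with erlotinib, against 7.75, 7.42 and 7.34 with DMSO in GFP vector cells. The groups did not overlap. The falls were -0.85 ± 0.091 in pre-miR-371 cells (adjusted p = 5.71e-06) and -0.98 ± 0.091 in GFP vector cells (adjusted p = 1.31e-06), and as means over its probe sets -0.42 in pre-miR-371 and -0.41 in GFP vector cells, not called.

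XBP1, whose spliced form drives chaperone and ERAD genes, rose. It was at 8.88, 9.03 and 8.94 with erlotinib, against 7.25, 7.49 and 7.47 with DMSO in pre-miR-371 cells. It was at 8.88, 9.05 and 9.04 with erlotinib, against 7.34, 7.32 and 7.19 with DMSO in GFP vector cells. All erlotinib arrays were at 8.88 or above and all DMSO arrays at 7.49 or below. The rises were 1.55 ± 0.079 in pre-miR-371 cells (adjusted p = 9.15e-09) and 1.70 ± 0.079 in GFP vector cells (adjusted p = 2.94e-09). Its splicing was not measured here.

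Of the chaperones, HSPA5 encodes BiP, the ER Hsp70 that holds the sensors inactive. HSPA5 was at 12.68, 12.68 and 12.75 with erlotinib, against 12.11, 12.18 and 12.24 with DMSO in pre-miR-371 cells. In GFP vector cells HSPA5 was at 12.77, 12.68 and 12.64 with erlotinib, against 12.15, 12.05 and 11.99 with DMSO. Erlotinib and DMSO arrays were apart in both lines. The rise was called in GFP vector cells (0.63 ± 0.063, adjusted p = 2.64e-06) and was 0.58, just short of the fold limit, with arrays centred on their medians. In pre-miR-371 cells it was 0.53 ± 0.063 (adjusted p = 1.59e-05), and 0.60 to 0.70 and called with other probe set choices or repeated quantile normalization.

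HSP90B1, the ER Hsp90 called GRP94, was at 10.24, 10.19 and 10.10 with erlotinib, against 9.65, 9.73 and 9.73 with DMSO in pre-miR-371 cells. In GFP vector cells HSP90B1 was at 10.28, 10.28 and 10.19 with erlotinib, against 9.84, 9.72 and 9.76 with DMSO. The groups were apart, and the differences of 0.47 ± 0.06 in pre-miR-371 cells (adjusted p = 2.55e-05) and 0.47 ± 0.06 in GFP vector cells (adjusted p = 2.31e-05) were inside the fold limit. Probe sets of HSP90B1, CALR, PDIA6 and SLC38A2 are of a kind that can match other transcripts.

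DNAJB9, an ER J-protein and usual target of spliced XBP1, rose most of the chaperones. It was at 8.77, 8.78 and 8.78 with erlotinib, against 7.70, 7.49 and 7.64 with DMSO in pre-miR-371 cells. It was at 8.94, 8.93 and 8.96 with erlotinib, against 7.68, 7.54 and 7.50 with DMSO in GFP vector cells. The erlotinib arrays varied by less than 0.05 within a line and lay more than 1 log2 unit above the DMSO arrays. The rises were 1.16 ± 0.066 in pre-miR-371 cells (adjusted p = 2.28e-08) and 1.36 ± 0.066 in GFP vector cells (adjusted p = 4.18e-09).

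SDF2L1, a partner of ER J-proteins that is commonly raised by ER stress, was the 1 chaperone lower in both lines. Its values were 7.61, 7.52 and 7.29 with erlotinib, against 7.87, 7.76 and 7.83 with DMSO in pre-miR-371 cells. They were 7.51, 7.56 and 7.51 with erlotinib, against 7.94, 7.80 and 7.92 with DMSO in GFP vector cells. The groups did not overlap. The differences were -0.34 ± 0.079 in pre-miR-371 cells (adjusted p = 0.00279) and -0.36 ± 0.079 in GFP vector cells (adjusted p = 0.00186), inside the fold limit.

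CALR, the lectin chaperone calreticulin, rose by 0.86 in pre-miR-371 and 0.90 in GFP vector cells, and CRELD2, an ER protein with a disulphide-exchange role, by 0.62 in pre-miR-371 and 0.67 in GFP vector cells. Without pre-miR-371 DMSO replicate 3 the pre-miR-371 value of CRELD2 was 0.58 and no longer past the fold. The disulphide isomerase PDIA4 was 0.54 higher in pre-miR-371 cells, inside the limit but 0.60 and called with repeated quantile normalization, and rose by 0.63 in GFP vector cells. PDIA6, of the same family, was at 0.27 in pre-miR-371 and 0.32 in GFP vector cells, the lectin chaperone CANX at 0.23 in pre-miR-371 and 0.21 in GFP vector cells, and the secreted ER factor MANF at 0.03 in pre-miR-371 and 0.10 in GFP vector cells, none of them called.

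HERPUD1, a membrane protein of the ERAD complex, had the largest rise of the 43 genes. In pre-miR-371 cells it was at 10.79, 10.76 and 10.74 with erlotinib, against 8.35, 8.17 and 8.29 with DMSO. The GFP vector line gave 10.87, 10.86 and 10.93 with erlotinib, against 8.25, 8.09 and 8.10 with DMSO. The erlotinib arrays were more than 2 log2 units above the DMSO arrays. The rises were 2.50 ± 0.065 in pre-miR-371 cells (adjusted p = 3.54e-11) and 2.74 ± 0.065 in GFP vector cells (adjusted p = 1.32e-11). SEL1L, the adaptor of the HRD1 ubiquitin ligase, rose by 0.89 in pre-miR-371 and 0.90 in GFP vector cells, and EDEM1, which directs misfolded glycoproteins to disposal, was at -0.23 in pre-miR-371 and -0.26 in GFP vector cells, inside the fold limit.

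Promoter sequence was read for 39 of the 43 genes from RefSeq windows of 300 bases on GRCh38.p14, running from 250 before to 50 after the first listed start. Both strands were searched for 4 motifs: the core of the C/EBP-ATF response element, TGATGNAA; the ER stress element ERSE, CCAAT and CCACG with 9 bases between; ERSE-II, ATTGG and CCACG with 1 base between; and the unfolded protein response element, TGACGTGG. The response element core was in 3.67% of all 27305 promoters and in 6 of the 39, among them 5 of 22 of the ATF4 branch. ERSE was in 0.0806% of all promoters and in 6 of the 39, of which 5 were among the 10 chaperones and 1 was XBP1. ERSE-II was in 0.0549% of all promoters and in SDF2L1 and HERPUD1. TGACGTGG was in 0.795% of all promoters and in 0 of the 39. A match is only a run of letters, and with any listed start counted CEBPG, SLC1A5 and PDIA6 held a match as well.

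The response element cores are shown because their genes moved both ways: ASNS, CHAC1 and HERPUD1 rose in at least 1 line, SLC7A1 fell, and SLC3A2 and ATF3 were not called. They lie at chr7:97872463-97872482 (ASNS, gene on the minus strand), chr15:40953256-40953275 (CHAC1, plus), chr16:56931960-56931979 (HERPUD1, plus), chr13:29595668-29595687 (SLC7A1, minus), chr11:62881730-62881748 (SLC3A2, plus) and chr1:212565210-212565229 (ATF3, plus). Each is written 5′ to 3′ on the strand of its gene, with the match in capitals, which reads as the reverse complement where the match is on the other strand.
ASNS: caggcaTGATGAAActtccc
CHAC1: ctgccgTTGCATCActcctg
HERPUD1: ggcgggTTGCATCAgcccgt
SLC7A1: cactgcTGATGAAAcctggc
SLC3A2: gactccTTACATCAgctcc
ATF3: tcaggaTGATGGAAggctgt
The cores of ASNS and SLC7A1 hold the same 8 letters, and ASNS rose while SLC7A1 fell. In ASNS the match begins 68 bases before the start and in SLC7A1 at base 7 after it.

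The ER stress elements are shown because most lay in the chaperones, the branch that moved largely one way. The chaperones were listed by pathway role, so their share of matches is only a description. Whether the elements bore on the changes was not tested. The ERSE matches lie at chr22:28800597-28800627 (XBP1, gene on the minus strand), chr9:125241385-125241415 (HSPA5, minus), chr12:103930210-103930240 and chr12:103930315-103930345 (HSP90B1, plus), chr19:12938378-12938408 (CALR, plus), chr5:179698772-179698802 (CANX, plus) and chr22:49918548-49918578 (CRELD2, plus). The ERSE-II matches lie at chr16:56932019-56932041 (HERPUD1, plus) and chr22:21642108-21642130 (SDF2L1, plus). Capitals mark the whole match, the bases between its ends included.
XBP1: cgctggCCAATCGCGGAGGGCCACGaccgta
HSPA5: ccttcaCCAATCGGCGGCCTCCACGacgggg
HSP90B1, first: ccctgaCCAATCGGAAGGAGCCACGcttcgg
HSP90B1, second: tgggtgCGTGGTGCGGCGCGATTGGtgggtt
CALR: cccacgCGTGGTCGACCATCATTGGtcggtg
CANX: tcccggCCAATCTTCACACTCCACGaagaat
CRELD2: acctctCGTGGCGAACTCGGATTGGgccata
HERPUD1: acgccgATTGGGCCACGttggga
SDF2L1: cggaagCGTGGACCAATcaaaac
All 6 genes with ERSE were higher with erlotinib in both lines at the adjusted p. Of all genes 24.8% were in pre-miR-371 and 26.5% in GFP vector cells. XBP1, CALR and CRELD2 were called in both lines, HSPA5 in GFP vector cells, and CANX and HSP90B1 were inside the fold limit in both. Of the chaperones with no match in these windows, DNAJB9, PDIA4 and PDIA6 were also higher in both lines at the adjusted p, and MANF in neither. The 2 genes with ERSE-II went apart, HERPUD1 at 2.50 in pre-miR-371 and 2.74 in GFP vector cells and SDF2L1 at -0.34 in pre-miR-371 and -0.36 in GFP vector cells. HERPUD1 was the 1 gene of the 39 with both kinds of element.

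The lines were then compared within each treatment. In DMSO none of the 43 genes was called (0 by limma and 0 by the methods' t-test with the same fold), where 0.217% of all genes were called higher and 0.233% lower. At an unadjusted p under 0.05, limma gave 4 genes higher and 11 lower in pre-miR-371 cells, where 9.02% of all genes were higher and 13.8% lower. The t-test gave 1 higher and 10 lower, where 6.40% of all genes were higher and 12.3% lower. With no fold limit ATF5 (-0.45, adjusted p = 0.0092) and VLDLR (-0.46, adjusted p = 0.0253) were lower in pre-miR-371 cells and 0 were higher, where 1.62% of all genes were higher and 3.64% lower.

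In erlotinib PSPH was called higher in the pre-miR-371 line, the 1 member called between the lines, where 0.688% of all genes were called higher and 0.551% lower. It was at 9.44, 9.45 and 9.90 in pre-miR-371 cells, against 8.78, 8.71 and 9.06 in GFP vector cells. The groups did not overlap, and the highest array of each stood apart from its other 2. The difference was 0.74 ± 0.131 (adjusted p = 0.00359). It was 0.38 and not called as a mean over its probe sets, and its adjusted p was 0.103 by the methods' t-test. With no fold limit 5 members were higher and 4 lower in pre-miR-371 cells, where 6.50% and 9.46% of all genes were. A dim SEL1L probe set not used here, with a mean of 4.04, was at -0.63 between the lines in erlotinib and called. The other SEL1L probe sets were not called. A dimmer HSPA5 probe set was at -0.435, inside the fold limit, where the one used was at 0.008.

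The responses of the lines to erlotinib were compared by the interaction term. SLC7A5 was the 1 member that passed the adjusted p, and 0 passed in the other direction, where 1.44% of all genes passed higher and 0.561% lower. Its response was larger in pre-miR-371 than in GFP vector cells by 0.49 ± 0.079 (adjusted p = 0.00943). In erlotinib SLC7A5 was 0.33 higher in pre-miR-371 cells, and in DMSO the difference was -0.16 (adjusted p = 0.118). With a fold over 1.5 as well, 0 members passed, where 0.516% of all genes did higher and 0.283% lower. At an unadjusted p under 0.05, 6 members were higher and 2 lower by limma, where 7.75% of all genes were higher and 7.29% lower; the t-test was not run on this term.

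For all 6 transporters the response to erlotinib was higher, or less negative, in pre-miR-371 than in GFP vector cells, by 0.04 to 0.49. The same sign was seen for 9206 of all 19775 genes. Their levels did not all follow, as in DMSO 1 of the 6 was higher in pre-miR-371 cells and 5 were lower. Beside SLC7A5, SLC7A11 (0.34 ± 0.084, adjusted p = 0.063), SLC7A1 (0.30 ± 0.072, adjusted p = 0.064) and SLC3A2 (0.27 ± 0.1, adjusted p = 0.217) did not pass. The largest difference of responses among the 43 was that of VLDLR, 0.55 ± 0.143 (adjusted p = 0.0832), which did not pass either. With repeated quantile normalization VLDLR, SLC7A11 and SLC7A1 passed, at adjusted p = 0.0433, 0.0373 and 0.0279. In the values as deposited, the line difference of VLDLR was seen in DMSO and not in erlotinib (0.08, adjusted p = 0.646). For the chaperones the differences of responses lay between -0.20 for DNAJB9 and 0.02 for CANX, and 0 of 10 passed by limma, also at an unadjusted p under 0.05.

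**Figure D4:**
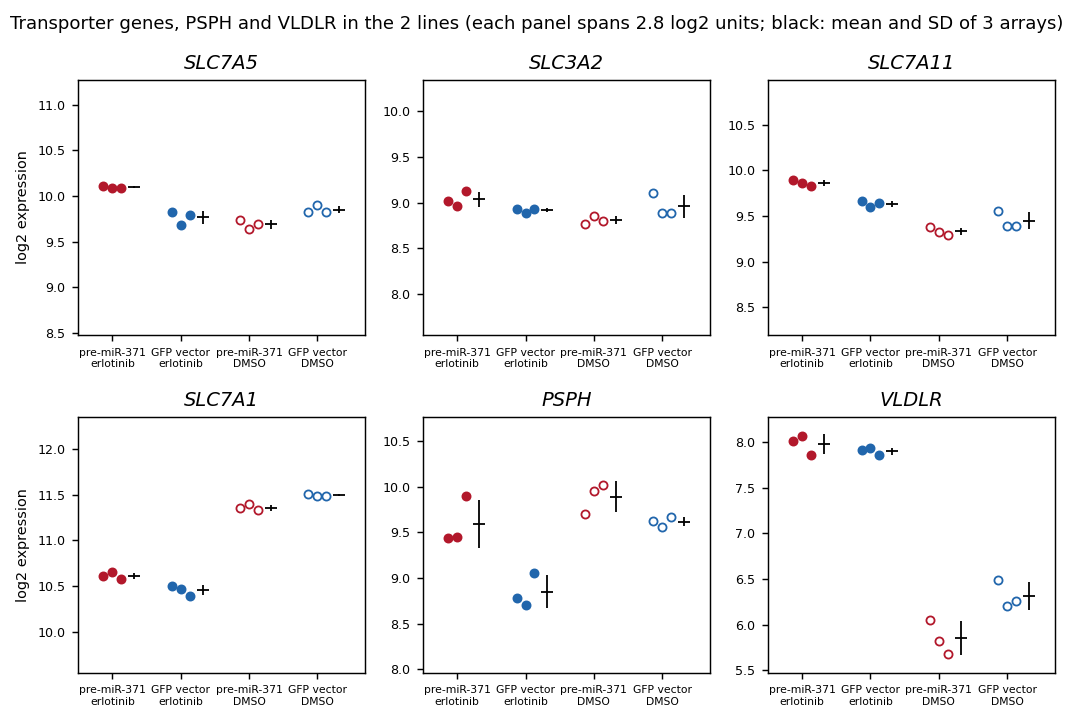
Log2 expression on each array of 4 transporter genes, PSPH and VLDLR in the 4 groups, each panel spanning 2.8 log2 units about its own centre; filled points are erlotinib and open points DMSO, red pre-miR-371 and blue GFP vector, with the mean and SD of 3 arrays in black. SLC7A5 is higher in erlotinib than in DMSO in the pre-miR-371 line and not in the GFP vector line, and PSPH is higher in pre-miR-371 than in GFP vector cells in erlotinib.

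Other genes of the same pathways were read from lists written beside the members. Of all genes, 12.6% were called higher and 9.33% lower in pre-miR-371 cells, and 14.1% higher and 11.7% lower in GFP vector cells. Of 17 aminoacyl-tRNA synthetases, which charge tRNAs with amino acids and include many ATF4 targets, 1 was called higher and 4 lower in each line. FARSA fell by 1.14 in pre-miR-371 and 1.28 in GFP vector cells, VARS1 by 1.17 in pre-miR-371 and 1.19 in GFP vector cells, and FARSB by 1.00 in pre-miR-371 and 1.11 in GFP vector cells, while CARS1 rose by 1.04 in pre-miR-371 and 1.07 in GFP vector cells. The next list held 12 genes for eIF2, its exchange factor, its kinases other than EIF2AK3, and the phosphatase subunit gene PPP1R15B. EIF2AK3, called higher in both lines, was counted among the ER sensors instead. Of the 12, 0 were called higher and 3 lower in each line by limma. These were EIF2B3 (-1.34 in pre-miR-371 and -1.53 in GFP vector cells), EIF2S1 (-1.19 in pre-miR-371 and -1.43 in GFP vector cells) and EIF2B2 (-1.06 in pre-miR-371 and -1.02 in GFP vector cells). At an unadjusted p under 0.05, 2 of the 12 were higher in pre-miR-371 and 1 in GFP vector cells, by limma and by the methods' t-test, where limma had 26.5% of all genes higher in pre-miR-371 and 28.4% in GFP vector cells.

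Of 18 other amino acid response genes, 5 were called higher and 2 lower in pre-miR-371 cells, and 4 higher and 4 lower in GFP vector cells. CTH, which makes cysteine from cystathionine, rose by 2.90 in pre-miR-371 and 2.65 in GFP vector cells, the neutral amino acid transporter SLC43A1 by 1.17 in pre-miR-371 and 1.80 in GFP vector cells, and JDP2, a bZIP repressor, by 1.68 in pre-miR-371 and 1.62 in GFP vector cells. Of 24 other ER folding genes, 3 were called higher in pre-miR-371 and 5 in GFP vector cells and 0 lower in either by limma, and the 3 of 24 in pre-miR-371 cells lay near the share of all genes. At an unadjusted p under 0.05, 5 were lower in pre-miR-371 and 4 in GFP vector cells by limma, and 5 in pre-miR-371 and 3 in GFP vector cells by the methods' t-test, where limma had 25.4% of all genes lower in pre-miR-371 and 25.3% in GFP vector cells. The largest rises were WFS1 (0.96 in pre-miR-371 and 1.10 in GFP vector cells), PDIA3 (0.68 in pre-miR-371 and 0.84 in GFP vector cells) and DNAJC3 (0.59 in pre-miR-371 and 0.71 in GFP vector cells).

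Of 16 other genes of ERAD and ER sensing, 5 were called higher in pre-miR-371 and 6 in GFP vector cells, and 0 were called lower by limma. At an unadjusted p under 0.05, 0 were lower in pre-miR-371 and 1 in GFP vector cells, by limma and by the methods' t-test. By limma 10 were higher in pre-miR-371 and 12 in GFP vector cells, and by the t-test 10 in each. Limma had 25.4% of all genes lower and 26.5% higher in pre-miR-371 cells, and 25.3% and 28.4% in GFP vector cells. The t-test had 23.8% lower and 25.7% higher in pre-miR-371 cells, and 23.0% and 25.7% in GFP vector cells. CREB3L2, an ER-bound transcription factor of the ATF6 kind, rose by 2.12 in pre-miR-371 and 2.27 in GFP vector cells, and the ER lectins ERLEC1 and OS9, which bind misfolded glycoproteins, by 1.11 in pre-miR-371 and 1.36 in GFP vector cells and by 1.01 in pre-miR-371 and 1.18 in GFP vector cells.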

How the data were processed

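Total RNA of 12 samples was hybridized to Affymetrix Hgu133plus2 arrays. The values deposited by the authors were on a log2 scale, with each probe set summarized on each array. Quantile normalization is named in the paper's methods, while RMA and affy appear in the processing notes of the submitters (versions not given in the sources used here). Background correction and summary over probes were therefore in the values already.

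Probe sets were named through the platform annotation with symbols updated by Entrez identifier. Of 54675 probe sets, 41097 had 1 symbol, 1801 several and 11777 none, and only those with 1 symbol were used, by which 1 further probe set of PHGDH and 2 of HSP90B1 were left out. Of the 43 members, 28 had several probe sets, and 39 had a mean of at least 6. No filter on dim signals was used in the main analysis. Of the listed genes outside the members, 10 were not measured by a probe set with 1 symbol.

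Group differences with their errors came from limma 3.58.1 (R 4.3.3), fitted with 1 mean per group on all 12 arrays and moderated by eBayes. P-values were Benjamini-Hochberg adjusted over 19775 genes. Calls required an adjusted p below 0.05 together with a fold above 1.5, as in the study's own array methods, and the interaction was read at the adjusted p alone. The fit was tested on simulated data. Plots used matplotlib 3.10.9 (Python 3.11.15). Values for every array are given for the usual readouts of each branch, the 3 largest called rises and falls in each line, members called between the lines and those past the interaction test; for other lists, up to 3 genes with the largest called change in GFP vector cells, and CARS1 as the 1 synthetase called higher. The members and lists were chosen with earlier results of these data known. Alternatives were other probe set rules, a mean of at least 6, repeated quantile normalization, median centring, array weights, a trended and robust eBayes prior, a replicate block, the methods' t-test, other fold limits and leaving out each array.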

Additional observations from a re-analysis of the deposited data

Results flagged for a closer look

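SLC7A5, the large neutral amino acid transporter LAT1, stood out because its response to erlotinib differed between the lines in the test of the difference itself (limma interaction term). The pre-miR-371 response exceeded the GFP vector response by 0.49 (adjusted p = 0.00943), with all 3 erlotinib arrays above all 3 DMSO arrays in pre-miR-371 cells. In GFP vector cells the groups all but touched, the highest erlotinib array at 9.823 and the lowest DMSO array at 9.826. The change of -0.08 there did not pass the adjusted p. Over 20 other settings the difference ranged between 0.45 and 0.53, with an adjusted p between 1.76e-05 and 0.033, and passed in all 20. These settings are not independent, as most left out 1 of the same 12 arrays. SLC7A5 has 1 probe set, so other probe set rules left its values unchanged. It was singled out because it passed, as 1.44% of all genes did in the same direction. Neither line's own change passed the fold of 1.5, and a single stable line of each kind was measured, so its cause was not tested.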

How the results depend on the processing

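Replicate numbers went with at most a weak pairing of the arrays. Deviations from group means correlated at -0.057 to 0.198 in 18 same-numbered pairs (median 0.034) and -0.203 to 0.108 in 36 others (median -0.03). Between erlotinib and DMSO arrays of a line, same-numbered pairs gave 0.05 to 0.135 in pre-miR-371 and -0.016 to 0.198 in GFP vector cells. Differently numbered pairs there gave -0.138 to 0.027 in pre-miR-371 and -0.203 to 0.097 in GFP vector cells. The main fit used no pairing. With the replicate number as a block, 3 members of the ATF4 branch passed the interaction test in place of 1, VLDLR and SLC7A11 being gained, and no other count or median moved.

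Counts in the ATF4 branch changed with the limit. With no fold limit, 14 were higher and 6 lower in pre-miR-371 cells, and 13 higher and 9 lower in GFP vector cells. The shares of all genes were 24.8% higher and 22.2% lower in pre-miR-371 cells, and 26.5% and 23.4% in GFP vector cells. Between the lines 2 were lower in DMSO, where 3.64% of all genes were. In erlotinib 5 were higher and 3 lower between the lines, where 6.50% and 9.46% of all genes were. At a fold over 2, 3 were higher and 1 lower in pre-miR-371 cells, and 4 higher and 2 lower in GFP vector cells. Between the lines in erlotinib 0 were higher at that limit. Shares of all genes past a fold over 2 were not counted. As means over all probe sets, 1 was lower in pre-miR-371 and 3 in GFP vector cells, and PSPH was lost between the lines (0), as with the methods' t-test (0). The interaction counted 2 with means over probe sets, 4 each with a mean of at least 6, repeated quantile normalization, trend and robust variance, or array weights, and 0 with a fold over 1.5 or 2. It ranged from 1 to 2 with an array left out, the 2 without pre-miR-371 DMSO replicate 1, which added VLDLR. Of the chaperones 8 were higher and 1 lower in each line with no fold limit, 1 was higher in each at a fold over 2, and 5 were higher in pre-miR-371 cells with repeated quantile normalization.

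The ATF4 branch median in GFP vector cells was 0.006 with means over probe sets, 0.035 with the most variable probe set, 0.22 with repeated quantile normalization and 0.12 with arrays centred on medians; in pre-miR-371 cells it was 0.21 with means and 0.30 with quantiles. Between the lines in DMSO it was -0.13 with means, -0.16 with the most variable probe set and -0.056 with quantiles, and -0.13 to -0.05 with an array left out; its interaction was 0.12 with array weights and 0.063 to 0.13 with an array left out. The chaperone median in GFP vector cells was 0.48 with means, 0.62 with quantiles and 0.50 centred, and in pre-miR-371 cells 0.39 with means, 0.57 with quantiles and 0.47 to 0.51 with an array left out. Between the lines it was -0.058, 0.032 and -0.044 in DMSO with the most variable probe set, quantiles and centring, -0.093 to -0.033 in erlotinib with an array left out, and its interaction was -0.081 with quantiles, -0.024 centred and -0.078 to -0.034 with an array left out. The erlotinib medians of both branches stayed above 0 under every setting run.

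With the most variable probe set, ATF3 turned to 0.85 in pre-miR-371 and 1.06 in GFP vector cells and SLC7A11 to -0.61 in GFP vector cells, all 3 called, in each case from another, dimmer probe set. Of 43 members, 31 in pre-miR-371 and 35 in GFP vector cells kept their call under every setting that held the call limits. The settings moved the median of all genes by between -0.057 and 0.036. ATF3, NUPR1, SESN2 and CHAC1 had means below 6, where signal limits what can be read.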

Other observations

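GDF15, a stress-induced secreted factor listed among the other amino acid response genes and not a member, was the 1 listed gene called between the lines. In erlotinib its mean was 4.72 in pre-miR-371 cells, against 5.48 in GFP vector cells, a difference of -0.76 ± 0.149 (limma, adjusted p = 0.00617), at dim signals. It was singled out after its values were seen. Of all genes, 0.688% were called higher and 0.551% lower between the lines in erlotinib. The 1 call among all the listed genes lay near those shares.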
